A study of Rattus norvegicus with 24 samples.

Results

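Insig1 and 9 enzymes of cholesterol synthesis were followed on 24 Affymetrix arrays of cultured rat hepatocytes. The members were Acat2, Idi1, Fdft1, Sqle, Lss, Cyp51, Msmo1, Hsd17b7, Ebp and Insig1, which belong to the pathway and its feedback control. They were chosen with earlier results of these data known, so the shares of all probe sets given beside their counts are descriptions. All 10 were found among 14217 genes with a probe set of a single gene symbol. Each gene was read from its probe set with the highest mean over the 24 arrays. Primary hepatocytes in every group were seeded on a base of type I collagen gel and kept in DMEM with fetal bovine serum, epidermal growth factor, insulin, glucagon and hydrocortisone, with the medium renewed daily. In sandwich cultures, labelled double gel, another collagen layer was laid over the cells a day after seeding, and monolayer cultures, labelled single gel, had only the base. Sampling days were 1, 2, 3 and 8, counted from the laying of the upper layer, with 3 arrays per culture and day, which makes 8 groups. The submitters set the sandwich as the stable control and the confluent monolayer as the unstable one. Strain, sex and age of the rats are not given in the sources used here. Nothing states whether the 3 replicates of a group came from separate animals or cultures, so the p-values measure only the spread between these arrays, which may be technical.

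Cholesterol is built from acetyl-CoA in a chain that passes through mevalonate, isoprenoid diphosphates and squalene, closes into the first sterol, lanosterol, and ends in a series of trimming steps on the sterol rings. The liver is a main site of this synthesis, since it supplies lipoproteins and bile acids. The pathway's genes are switched on together by the transcription factor SREBP-2, which is held in the endoplasmic reticulum with its escort Scap when sterols are plentiful and travels to the Golgi for cleavage when they are scarce. Insig-1 is the endoplasmic reticulum protein that holds the Scap complex back, and its own gene is a known SREBP target, which closes a feedback loop.

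Promoter sequence is shown for 4 members because SREBP acts on promoters through sterol regulatory elements (SRE), usually beside a CCAAT box bound by NF-Y. RefSeq windows of 300 bases on build GRCr8, running from 250 bases before to 50 bases after the annotated start, were matched for 8 of the 10 members. The windows printed are Idi1, which had the largest culture difference of the enzymes at day 8, Msmo1 and Hsd17b7, which held the most CCAAT boxes, and Insig1. They lie at chr17:66547475-66547774 on the minus strand for Idi1, chr16:29746863-29747162 on the plus strand for Msmo1, chr13:84722705-84723004 on the minus strand for Hsd17b7 and chr4:8057720-8058019 on the minus strand for Insig1. Capitals mark the CCAAT box (CCAAT, or ATTGG where it lies on the other strand) and the shorter SRE core (CACNCCAC, or GTGGNGTG on the other strand).
Idi1 promoter: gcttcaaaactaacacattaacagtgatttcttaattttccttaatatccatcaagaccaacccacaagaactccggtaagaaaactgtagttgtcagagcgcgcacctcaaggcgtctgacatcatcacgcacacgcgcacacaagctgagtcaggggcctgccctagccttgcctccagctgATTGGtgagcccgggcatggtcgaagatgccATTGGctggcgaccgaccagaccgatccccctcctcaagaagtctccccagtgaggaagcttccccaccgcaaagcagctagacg
Msmo1 promoter: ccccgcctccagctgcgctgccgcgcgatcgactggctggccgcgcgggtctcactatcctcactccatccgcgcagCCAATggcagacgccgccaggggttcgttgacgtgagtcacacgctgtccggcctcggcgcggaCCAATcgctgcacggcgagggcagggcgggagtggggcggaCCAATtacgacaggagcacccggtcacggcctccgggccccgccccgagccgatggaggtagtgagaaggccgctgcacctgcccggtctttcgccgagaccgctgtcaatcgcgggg
Hsd17b7 promoter: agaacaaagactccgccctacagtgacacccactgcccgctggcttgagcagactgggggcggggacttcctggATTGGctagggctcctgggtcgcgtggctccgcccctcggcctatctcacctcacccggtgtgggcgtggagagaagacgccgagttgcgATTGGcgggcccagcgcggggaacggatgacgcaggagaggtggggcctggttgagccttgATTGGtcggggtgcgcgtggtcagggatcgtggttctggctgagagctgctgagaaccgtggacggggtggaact
Insig1 promoter: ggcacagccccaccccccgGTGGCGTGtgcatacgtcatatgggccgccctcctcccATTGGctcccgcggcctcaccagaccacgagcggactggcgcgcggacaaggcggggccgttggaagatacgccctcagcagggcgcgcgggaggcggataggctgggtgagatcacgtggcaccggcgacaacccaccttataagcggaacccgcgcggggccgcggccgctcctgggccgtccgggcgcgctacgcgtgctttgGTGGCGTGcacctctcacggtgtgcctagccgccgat
Idi1 held 2 CCAAT boxes, Msmo1 and Hsd17b7 held 3 each, and Insig1 held 1, which begins at base -193 relative to the start. Insig1 also held 2 matches to the shorter SRE core, which begin at bases -231 and 14. Counted on both strands, a CCAAT box was in 6 of the 8 member windows, against 37.5% of all 33469 windows. The shorter SRE core was in 3 (Acat2, Ebp and Insig1), against 5.80%, and a GC box (GGGCGG), the site of Sp1, in 7, against 33.1%. The longer SRE core (TCACNCCAC), which contains the shorter one, was in 0 of 8, against 1.12% of all windows. These matches are descriptions of letters in a window and not of binding.

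The deposited values are log2 levels of probe sets, with array medians of 5.57 to 5.67, and within a group any pair of arrays correlated at 0.993 to 0.997 over all probe sets. Of the 4 measured hepatocyte markers, albumin lay between 15.00 and 15.04 in all 8 group means, close to the highest value of the whole table, 15.07, so its level cannot compare hepatocyte content between groups. In sandwich against monolayer cells, 2 of the 4 were called higher at day 1 and 1 at day 2. At day 3 it was 2, and at day 8 it was 3. Of all probe sets, 0.573%, 1.87%, 7.7% and 11.9% were called higher on those days. From day 1 to day 8 in monolayer cells, the median change of the 4 was 0.44, against -0.97 for the 10 genes described here. From day 3 to day 8 in monolayer cells it was -0.04, against -1.06 for the 10 genes. Over that step 1 of the 4 was called higher and 1 lower. Of all probe sets, 2149 of 31042 were called higher and 5.59% lower. Albumin is among the 4 in these counts and medians, and in their summed level. The summed level of the hepatocyte markers was 16.06 to 16.09 in sandwich day 8, against 15.72 to 15.83 in monolayer day 8. Of the 3 measured cholangiocyte markers, Krt19 and Krt7 stood at 7.97 and 7.23 in monolayer day 8. Their means were at most 4.78 and 4.01 in each of the other 7 groups. Epcam differed by -0.23 at day 8 (sandwich minus monolayer). Of the 3, 2 were called lower in sandwich cells at day 8, where 15.6% of probe sets were. From day 3 to day 8 all 3 rose in monolayer cells, where 2149 of 31042 probe sets were called higher. In sandwich cells 2 of the 3 rose over that step, where 5.58% of probe sets did. The summed level of the 3 ran from 10.04 to 10.32 in monolayer day 8, against 9.33 to 9.56 in sandwich day 8. The summed level of 5 macrophage markers was 9.45 to 9.63 in sandwich day 3, against 8.81 to 8.90 in monolayer day 3. All 5 were called higher that day, where 7.7% of probe sets were. By day 8 the summed level was 9.09 to 9.40 in sandwich cells, against 9.28 to 9.69 in monolayer cells. Between those days 4 of the 5 rose in monolayer cells, where 2149 of 31042 probe sets were called higher. The sandwich minus monolayer difference dropped for all 5 (median -0.83), where 941 of 31042 probe sets were called lower. Of 5 stellate cell and fibroblast markers and 3 endothelial markers, 1 of each was called at day 8, both higher in sandwich cells. Of all probe sets, 11.9% were called higher and 15.6% lower that day. As a sign of RNA integrity, the signal at the 3' end of beta-actin minus that at its 5' end was 0.99 ± 0.11 in sandwich and 0.82 ± 0.04 in monolayer cells (SD, n = 12 arrays each). The part of these shifts in the results below was not tested, except where values with beta-actin in the fit are given.

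The first comparison asked how the 10 genes differed between sandwich and monolayer cells on each day. From day 2 on, all 10 were higher in sandwich than in monolayer cells, and the median log2 difference was 1.20 at day 2, 1.19 at day 3 and 1.82 at day 8, against medians of 0.01, 0.01 and 0.00 over all genes. At day 1 the median was 0.41 and only Idi1, Msmo1 and Acat2 passed the test. Here a difference is the sandwich mean minus the monolayer mean on the log2 scale, a fold is 2 raised to it, and a call is an adjusted p under 0.05 in limma, fitted over all 24 arrays with Benjamini-Hochberg adjustment over 31042 probe sets. At day 1, 3 of the 10 genes were called higher and 0 lower, where 0.573% of all probe sets were called higher and 1.2% lower. At day 2, 10 of 10 were called higher, where 1.87% of probe sets were. At day 3 it was 10 of 10, where 7.7% were, and at day 8 it was 10 of 10, where 11.9% were. The 3 sandwich arrays lay above the 3 monolayer arrays for 8 genes at day 1, all but Sqle and Ebp, where 7.88% of probe sets did so, and for all 10 genes on days 2, 3 and 8, where 8.89%, 14.5% and 18.3% did. RNA was taken from whole cultures, so fewer cells of a type and less RNA per cell cannot be told apart. With the beta-actin difference as a covariate, 4 genes were called at day 1 and all 10 on each later day. Monolayer replicate 3 was the lowest array of its group for all 10 genes on days 2 and 8, and without it all 10 were still called on both days.

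**Figure D1:**
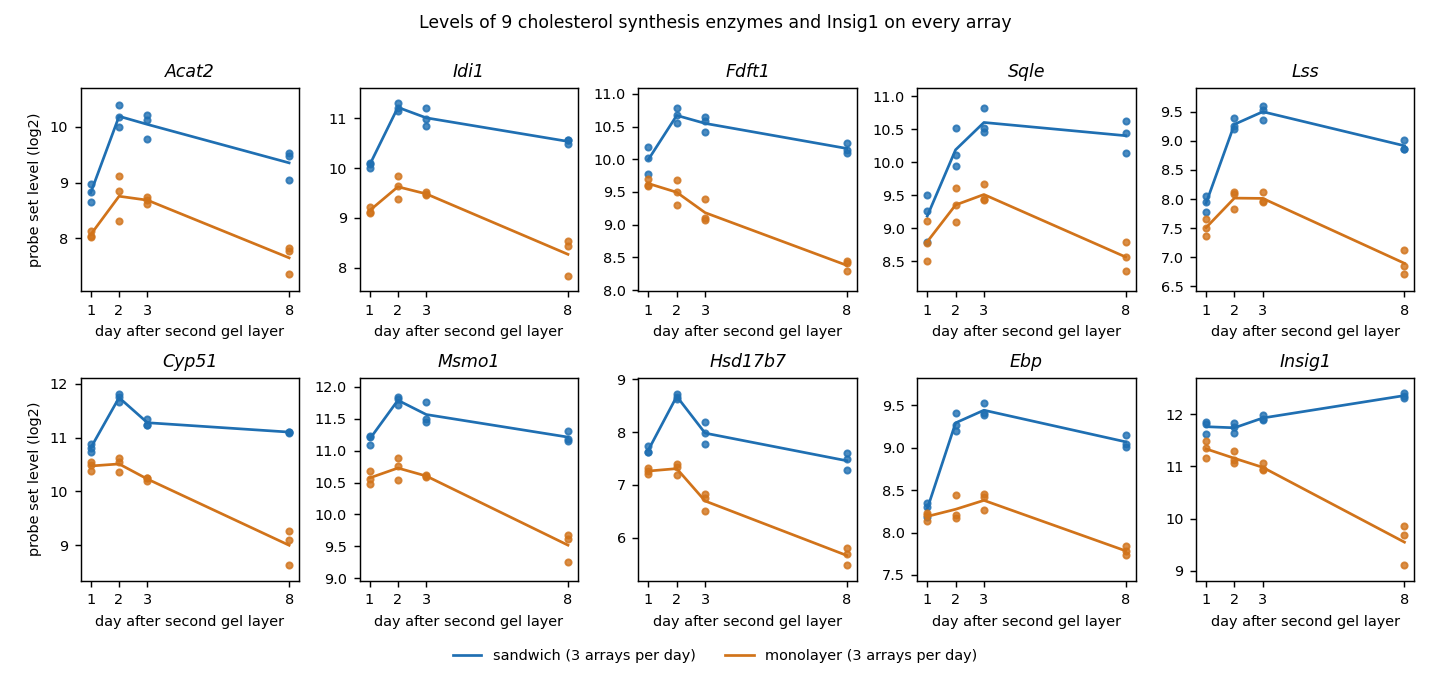
Log2 probe set level of each of the 10 genes on every array (points) with group means (lines), by day after the upper gel layer was laid, for sandwich (blue) and monolayer (orange) cultures of 3 arrays per day. The sandwich arrays lie above the monolayer arrays for all 10 genes from day 2, and Insig1 has its highest points in sandwich day 8. Each panel has its own vertical range, which does not start at 0.

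The early steps were read from Acat2 and Idi1. Acat2 is the cytosolic thiolase that joins acetyl-CoA units into acetoacetyl-CoA, and Idi1 interconverts the isoprenoid building blocks isopentenyl and dimethylallyl diphosphate. Idi1 had log2 levels of 10.48, 10.56 and 10.56 in sandwich day 8, against 8.45, 8.53 and 7.83 in monolayer day 8. The groups were far apart, by 2.27 ± 0.13 (SE), or 4.81-fold (adjusted p = 1.34e-12, limma). Each SE of a difference comes from the limma fit, which pools the spread of a probe set over all 8 groups. It is therefore not the spread of the arrays compared. For Idi1 at day 8, the SD was 0.05 in sandwich and 0.38 in monolayer cells (n = 3 arrays each). At day 1 its levels were already apart, at 10.10, 10.00 and 10.08 in sandwich cells, against 9.22, 9.12 and 9.10 in monolayer cells. That day 1 difference was 0.91 ± 0.13, or 1.89-fold (adjusted p = 0.000197). At day 2, Idi1 stood at 11.31, 11.20 and 11.15 in sandwich cells, against 9.65, 9.85 and 9.38 in monolayer cells, and at day 3 at 10.99, 11.20 and 10.84, against 9.48, 9.51 and 9.46. The other Idi1 probe set gave differences of 0.74, 1.54, 0.87 and 2.07 on days 1, 2, 3 and 8, and was not called at day 1 (adjusted p = 0.364) or at day 3 (adjusted p = 0.0673), where 1 sandwich array read 7.59 and the other 2 read 9.33 and 9.15.

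Acat2 had log2 levels of 9.47, 9.54 and 9.04 in sandwich day 8, against 7.82, 7.78 and 7.36 in monolayer day 8, a difference of 1.70 ± 0.17, or 3.24-fold (adjusted p = 1.43e-08, limma). In both groups replicate 3 was the lowest, and the groups did not overlap. At day 2 it stood at 10.39, 9.99 and 10.17 in sandwich cells, against 8.85, 9.11 and 8.31 in monolayer cells. At day 1 it differed by 0.75 ± 0.17 (adjusted p = 0.0161), a call that ended when sandwich replicate 1 or 3, or monolayer replicate 2 or 3, was left out (adjusted p from 0.0535 to 0.0996).

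Fdft1, Sqle and Lss carry farnesyl diphosphate to the first sterol. Fdft1 is squalene synthase, the first step committed to sterols, Sqle is squalene epoxidase, an oxygen-using and flux-controlling step, and Lss is the cyclase that folds oxidosqualene into lanosterol. Sqle had log2 levels of 10.62, 10.45 and 10.14 in sandwich day 8, against 8.79, 8.56 and 8.35 in monolayer day 8, a difference of 1.84 ± 0.19, or 3.58-fold (adjusted p = 2.09e-08, limma). Its day 1 arrays overlapped, at 9.50, 8.79 and 9.27 in sandwich cells, against 9.11, 8.77 and 8.50 in monolayer cells, with a difference of 0.39 ± 0.19 (adjusted p = 0.444). At day 2 Sqle had the smallest difference of the 9 enzymes, 0.84 ± 0.19 (adjusted p = 0.00511), and that call ended without sandwich replicate 1 (adjusted p = 0.0539).

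Lss had log2 levels of 8.86, 9.02 and 8.87 in sandwich day 8, against 6.85, 7.12 and 6.72 in monolayer day 8, a difference of 2.02 ± 0.11, or 4.05-fold (adjusted p = 3.44e-13). Its other probe set ran the same way with a smaller size, 1.20 ± 0.09 (adjusted p = 1.02e-10). Fdft1 had levels of 10.10, 10.25 and 10.14 in sandwich day 8, against 8.44, 8.41 and 8.29 in monolayer day 8, a difference of 1.79 ± 0.11, or 3.45-fold (adjusted p = 3.98e-12). Neither gene's groups overlapped on any day. The other Fdft1 probe set gave 1.36 ± 0.13 at day 8.

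Cyp51, Msmo1, Hsd17b7 and Ebp trim the sterol rings. Cyp51 removes a methyl group from lanosterol, Msmo1 oxidises methyl groups at another ring carbon, Hsd17b7 reduces the ketone that this demethylation leaves, and Ebp is the isomerase that shifts a ring double bond. Cyp51 had log2 levels of 11.10, 11.09 and 11.11 in sandwich day 8, against 9.09, 9.26 and 8.64 in monolayer day 8. The sandwich arrays were nearly level (SD 0.01), while the monolayer arrays spread more (SD 0.32). The difference was 2.11 ± 0.11, or 4.30-fold (adjusted p = 1.49e-13, limma), and the other Cyp51 probe set gave 2.02 ± 0.18. The set used carries the suffix that Affymetrix gives to probe sets that can match several transcripts.

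Msmo1 had log2 levels of 11.16, 11.30 and 11.18 in sandwich day 8, against 9.61, 9.68 and 9.26 in monolayer day 8, a difference of 1.69 ± 0.11, or 3.24-fold (adjusted p = 5.89e-12). It was among the 3 genes called at day 1, at 11.08, 11.22 and 11.24 in sandwich cells, against 10.47, 10.56 and 10.68 in monolayer cells, which is 0.61 ± 0.11 apart (adjusted p = 0.00193). Ebp showed the least at day 1 and at day 8. Its day 1 levels of 8.19, 8.30 and 8.34 in sandwich cells overlapped 8.13, 8.21 and 8.23 in monolayer cells, with a difference of 0.09 ± 0.09 (adjusted p = 0.783). By day 8 it stood at 9.01, 9.15 and 9.04 in sandwich cells, against 7.78, 7.84 and 7.73 in monolayer cells, 2.44-fold apart (1.29 ± 0.09, adjusted p = 1.75e-11).

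Hsd17b7 had log2 levels of 7.29, 7.49 and 7.60 in sandwich day 8, against 5.69, 5.81 and 5.48 in monolayer day 8. Those monolayer values lie around the median of all tested values, 5.62, and the part of background signal in them was not tested. The difference was 1.80 ± 0.11, or 3.47-fold (adjusted p = 2.47e-12). The other Hsd17b7 probe set gave 2.33 ± 0.17. Its monolayer day 8 mean, 5.05, lay below that median, and the part of background signal in it was not tested. At day 2 the gene was at 8.73, 8.64 and 8.67 in sandwich cells, against 7.35, 7.40 and 7.18 in monolayer cells, 2.58-fold apart (1.37 ± 0.11, adjusted p = 4.9e-09).

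Insig1 encodes the sterol-sensing brake of the pathway, and its levels ran in another order over time. It had log2 levels of 12.36, 12.40 and 12.32 in sandwich day 8, against 9.68, 9.85 and 9.11 in monolayer day 8. The difference of 2.81 ± 0.13, or 7.03-fold (adjusted p = 1.33e-14, limma), was the largest of the 10 genes at that day. At day 2 it had been the smallest of the 10, 0.59 ± 0.13 (adjusted p = 0.0047), with 11.83, 11.64 and 11.75 in sandwich cells, against 11.29, 11.12 and 11.06 in monolayer cells. At day 1 the arrays stood at 11.82, 11.63 and 11.85 in sandwich cells, against 11.49, 11.35 and 11.17 in monolayer cells, apart but not called (0.43 ± 0.13, adjusted p = 0.106). At day 3 they stood at 11.92, 11.89 and 11.98, against 10.94, 11.07 and 10.94 (0.95 ± 0.13, adjusted p = 4.71e-06). Without monolayer replicate 3, the lowest array, the day 8 difference of Insig1 was 2.59.

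**Figure D2:**
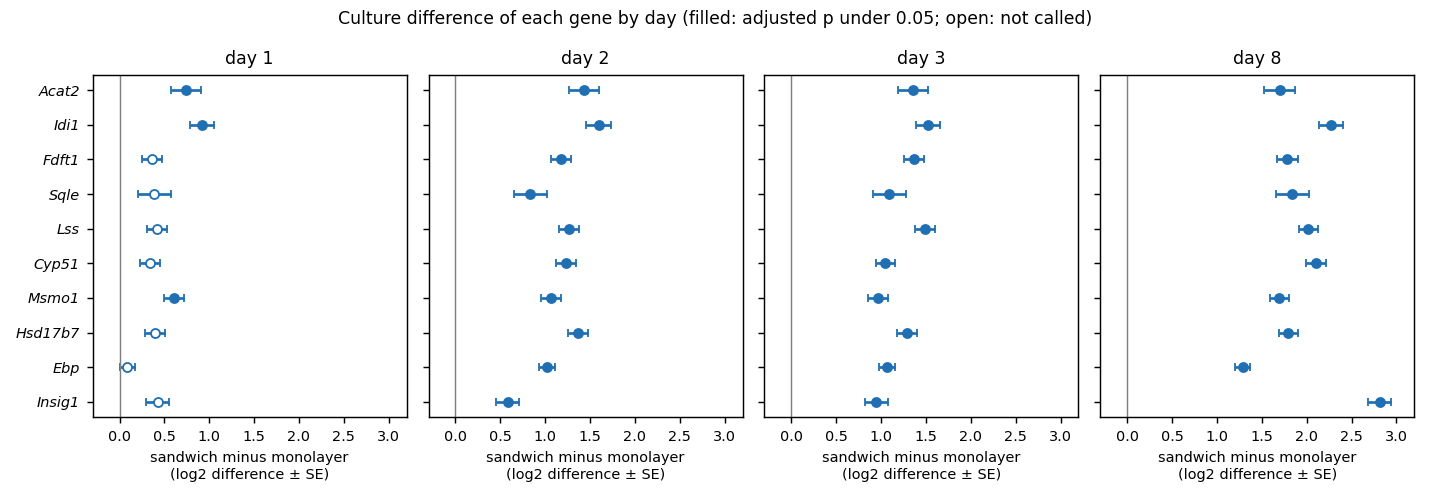
Log2 difference of sandwich minus monolayer (points, with SE bars) for the 10 genes on days 1, 2, 3 and 8. Filled points are called at an adjusted p under 0.05. Idi1, Acat2 and Msmo1 are the filled points at day 1, all 10 are filled later, and Insig1 moves out to 2.81 at day 8.

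The next comparisons followed each culture over time. In sandwich cells the 9 enzymes rose together between day 1 and day 2, by a median of 1.01, and Insig1 did not (-0.02 ± 0.13, adjusted p = 0.979). The rise was called for 9 of the 10 genes, where 2.78% of probe sets were called higher. It was largest for Acat2, at 1.37 ± 0.17 (adjusted p = 4.01e-06), and Lss, at 1.35 ± 0.11 (adjusted p = 8.29e-09, limma), and smallest for Msmo1, at 0.61 ± 0.11 (adjusted p = 0.0005). Cyp51 had log2 levels of 10.73, 10.89 and 10.80 at day 1 and 11.76, 11.81 and 11.66 at day 2, without overlap.

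Between day 2 and day 3 in sandwich cells, 0 genes were called higher and 2 lower, where 1.72% of probe sets were called higher and 1.13% lower. They were Hsd17b7, which fell by 0.70 ± 0.11 (adjusted p = 0.000507), and Cyp51, which fell by 0.47 ± 0.11 (adjusted p = 0.0178). Their other probe sets differed by -0.10 and 0.02 and were not called, so the falls rest on a single probe set each. The Cyp51 call also ended when any of sandwich day 2 replicates 1 and 2 or day 3 replicates 1 and 3 was left out.

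Between day 3 and day 8 in sandwich cells, 7 enzymes fell and Insig1 rose, where 5.6% of probe sets were called lower and 5.58% higher. The falls ran from -0.35 for Msmo1 to -0.69 for Acat2, while Sqle (-0.20 ± 0.19) and Cyp51 (-0.17 ± 0.11) were not called. The other Idi1 probe set went against its fall (0.23 ± 0.32, adjusted p = 0.792). Those of Hsd17b7 (-0.21 ± 0.17, adjusted p = 0.574) and Fdft1 (-0.38 ± 0.13, adjusted p = 0.0523) were lower but not called. That of Lss was called lower (-0.71 ± 0.09, adjusted p = 4.02e-06). Insig1 differed by 0.43 ± 0.13 (adjusted p = 0.0291), a call lost when the arrays were centred on their medians (adjusted p = 0.0525) or when any of sandwich day 3 replicates 1 and 2 or day 8 replicates 1, 2 and 3 was left out (adjusted p from 0.0556 to 0.0949). With sandwich day 3 replicate 2, or day 8 replicate 1 or 3, left out, 4 of the 10 genes were called in place of 8. Against day 1, 6 genes stood higher at day 8 in sandwich cells and 0 lower, where 11.6% of probe sets were called higher and 13.2% lower. Sqle led them at 1.22 ± 0.19 (2.33-fold), followed by Lss at 0.99, Ebp at 0.79, Insig1 at 0.60, Acat2 at 0.54 and Idi1 at 0.47. The Acat2 call ended without sandwich day 1 replicate 2 or day 8 replicate 1 or 2, and the Idi1 call with the mean of its probe sets (adjusted p = 0.0681). Fdft1 (0.17), Cyp51 (0.30), Msmo1 (0.03) and Hsd17b7 (-0.20) were not called. The other probe sets of Fdft1 (0.49 ± 0.13, adjusted p = 0.00441), Cyp51 (0.55 ± 0.18, adjusted p = 0.0287) and Hsd17b7 (0.79 ± 0.17, adjusted p = 0.000814) were called higher, for Hsd17b7 with the opposite sign, so the probe sets of these genes disagree. The other Lss probe set gave 0.28 ± 0.09 (adjusted p = 0.0213), less than the set used.

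In monolayer cells 3 of the 10 genes, Acat2, Idi1 and Lss, rose between day 1 and day 2, where 2.43% of probe sets were called higher. Acat2 differed by 0.68 ± 0.17 (adjusted p = 0.0141), Lss by 0.51 ± 0.11 (adjusted p = 0.00563) and Idi1 by 0.48 ± 0.13 (adjusted p = 0.0355), a call that ended in 4 of the 8 other settings. Without monolayer day 1 replicate 2, or day 2 replicate 1 or 2, only 1 of the 10 genes was called. Between day 2 and day 3, Hsd17b7 was the single gene called, lower by 0.61 ± 0.11 (adjusted p = 0.000966), where 2.45% of probe sets were called lower, and its other probe set differed by -0.16.

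Between day 3 and day 8 in monolayer cells all 10 genes fell, where 5.59% of probe sets were called lower. The median was -1.06, with Insig1 at -1.44 ± 0.13 (2.70-fold lower, adjusted p = 1.13e-08), Cyp51 at -1.23 ± 0.11, Idi1 at -1.21 ± 0.13 and Ebp, the smallest, at -0.60 ± 0.09 (adjusted p = 2.01e-05). For all 10 genes monolayer day 8 had the lowest mean of the 8 groups. Against day 1, 8 genes were lower at day 8, where 15.8% of probe sets were called lower. Insig1 fell by 1.79 ± 0.13 (3.46-fold, adjusted p = 4.27e-11), Hsd17b7 by 1.60 ± 0.11, Cyp51 by 1.48 ± 0.11 and Fdft1 by 1.25 ± 0.11. The other probe sets of Hsd17b7 (-0.99 ± 0.17), Cyp51 (-1.23 ± 0.18) and Fdft1 (-0.49 ± 0.13) fell less, and that of Idi1 was not called (-0.79 ± 0.32, adjusted p = 0.0673). The other Hsd17b7 probe set went from 6.04 to 5.05, below the median of all tested values, 5.62. The part of background signal in its fall was not tested. Acat2 (-0.42 ± 0.17, adjusted p = 0.0634) and Sqle (-0.23 ± 0.19, adjusted p = 0.407) were not called. Acat2 gained the call in several other settings, such as quantile normalization (adjusted p = 0.0425), but not in all.

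Whether the culture difference itself changed between days was tested as an interaction, the sandwich minus monolayer difference at the later day minus that at the earlier day. From day 1 to day 8 it grew for all 10 genes, where 7.8% of probe sets had an interaction called higher. The growth was 2.39 ± 0.18 for Insig1 (adjusted p = 5.91e-10, limma), 1.77 ± 0.16 for Cyp51 (adjusted p = 6.49e-09) and 1.60 ± 0.16 for Lss. Among the probe sets used for the 10 genes it was smallest for Acat2, at 0.95 ± 0.24 (adjusted p = 0.00558). The other Lss probe set grew less, with differences of 0.32 at day 1 and 1.20 at day 8, against 0.42 and 2.02 for the set used. From day 1 to day 2 it grew for 5 genes, Hsd17b7 (0.97 ± 0.16), Ebp (0.93 ± 0.12), Cyp51 (0.90 ± 0.16), Lss (0.85 ± 0.16) and Fdft1 (0.81 ± 0.16), where 0.177% of probe sets were called higher. From day 2 to day 3 it was called for 0 genes, where 0.683% of probe sets were called higher and 0.561% lower, and the gene values ran from -0.19 for Cyp51 to 0.36 for Insig1.

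From day 3 to day 8 the difference grew for 5 genes, where 3.12% of probe sets were called higher. Insig1 grew by 1.87 ± 0.18 (adjusted p = 2.03e-07), Cyp51 by 1.06 ± 0.16 (adjusted p = 6.89e-05), Idi1 by 0.74 ± 0.19 (adjusted p = 0.0169), Msmo1 by 0.73 ± 0.15 (adjusted p = 0.00344) and Lss by 0.53 ± 0.16 (adjusted p = 0.0426). The Lss call ended in 10 of 12 fits that left out 1 array and its other probe set gave 0.00. The Idi1 call ended on the arrays of the compared groups alone (adjusted p = 0.054), and without monolayer day 8 replicate 3 or sandwich day 3 replicate 3 the count was 3. Hsd17b7 (0.51 ± 0.16, adjusted p = 0.0508) and Sqle (0.75 ± 0.26, adjusted p = 0.103) were not called, but gained the call with quantile normalization (adjusted p = 0.0206 and 0.0493).

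Across the 8 group means the genes moved closely together, with Insig1 and Sqle standing a little apart. Correlated with the mean of the other 9, Idi1 was highest at r = 0.99 and Insig1 lowest at r = 0.86, with Sqle at 0.89. Among pairs, Lss and Ebp were most alike (r = 0.99) and Sqle and Hsd17b7 least (r = 0.69). All points share the same 24 arrays, so these values are descriptions. The highest group was sandwich day 2 for 6 genes and sandwich day 3 for Sqle, Lss and Ebp, and for 7 of these 9 enzymes the days 2 and 3 overlapped in sandwich cells. Cyp51 and Hsd17b7 were the exceptions, with day 3 wholly below day 2, as 8.11% of probe sets were. Insig1 ordered otherwise, with sandwich day 8 at 12.36 ± 0.04 above sandwich day 3 at 11.93 ± 0.05, then sandwich days 1 and 2 at 11.76 ± 0.12 and 11.74 ± 0.09, which overlapped (SD, n = 3). Below these came monolayer days 1, 2 and 3 at 11.34 ± 0.16, 11.16 ± 0.12 and 10.98 ± 0.07, each overlapping the next, and last monolayer day 8 at 9.55 ± 0.39.

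**Figure D3:**
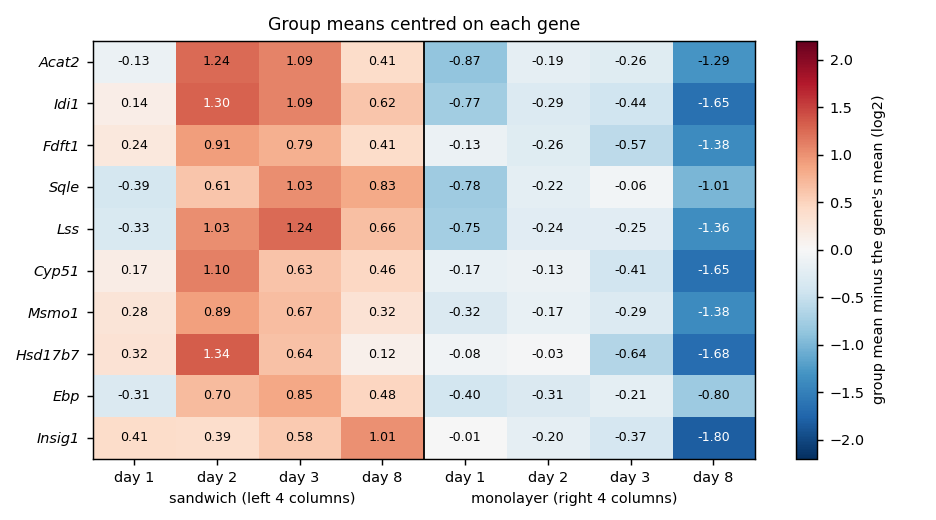
Group means of the 10 genes minus each gene's mean over the 8 groups (log2, red above and blue below), with sandwich days 1, 2, 3 and 8 in the left columns and monolayer days in the right. The enzymes are reddest in sandwich days 2 and 3, except that Sqle is redder in sandwich day 8 than in sandwich day 2. Insig1 is reddest in sandwich day 8 (1.01), and every gene is bluest in monolayer day 8.

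By the likeness of their 8 group means to the members' mean profile, the closest of 2057 genes whose group means spanned at least 1 log2 unit were Erg28 (r = 0.99), Cyb5b (0.98), Acss2 (0.98), Dhdds (0.97), Mvd (0.97), Slc10a1 (0.97), Cdo1 (0.97) and C4bpa (0.97). Mvd is the mevalonate diphosphate decarboxylase of the same pathway, Acss2 makes cytosolic acetyl-CoA from acetate, and Slc10a1 is the bile acid uptake transporter of the hepatocyte. Over the 24 single arrays Dhdds dropped to r = 0.78, while the other 7 stayed at 0.958 or above.

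The rest of the pathway was read from lists of related genes. Of 12 other cholesterol synthesis enzymes, 9 were measured and the other 3 were not analysed here. At day 1, 0 of the 9 were called, where 0.573% of probe sets were called higher. On days 2, 3 and 8 the count was 8 higher and 0 lower, where 1.87%, 7.7% and 11.9% of probe sets were called higher, and the median at day 8 was 1.09, against 1.82 for the 10 members. Fdps, which makes farnesyl diphosphate, differed by 1.85 ± 0.09 at day 8 (3.61-fold, adjusted p = 6.52e-14), Dhcr7, the last reductase of the chain, by 1.45 ± 0.11 and Tm7sf2, a sterol reductase, by 1.40 ± 0.10. Lbr, a nuclear envelope protein with the same reductase activity, was the gene not called (0.10 ± 0.10, adjusted p = 0.511).

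Genes of sterol sensing and SREBP processing moved less uniformly. Of 8 measured, 3 were higher and 2 lower in sandwich cells at day 8, where 11.9% of probe sets were called higher and 15.6% lower. Insig2, the relative of Insig1, differed by 1.46 ± 0.08 (2.75-fold, adjusted p = 3.44e-13), Srebf1, the lipogenic SREBP gene, by 1.14 ± 0.11 (adjusted p = 9.69e-09) and Rnf139, an ubiquitin ligase of the endoplasmic reticulum, by 0.64 ± 0.12. Insig2 stood at 10.97 ± 0.11 in sandwich day 8 and 9.51 ± 0.01 in monolayer day 8 (SD, n = 3). The genes for SREBP-2 (Srebf2, 0.21 ± 0.10, adjusted p = 0.152) and Scap (-0.16 ± 0.14, adjusted p = 0.446) were not called, and the proteases Mbtps1 (-0.31 ± 0.09) and Mbtps2 (-0.32 ± 0.12) were lower. Those 4 and Lbr were chosen after their values were seen.

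Among 7 measured genes of sterol efflux and LXR, 1 was higher and 4 lower at day 8, against the same 11.9% higher and 15.6% lower of all probe sets. Soat1, which esterifies cholesterol for storage, had 7.57 ± 0.27 in sandwich day 8 and 9.36 ± 0.18 in monolayer day 8 (SD, n = 3), a difference of -1.79 ± 0.13 (3.45-fold lower, adjusted p = 7.23e-11, limma). The efflux transporter Abcg1 was also lower (-1.25 ± 0.14), and Nr1h3, the gene of LXR-alpha, was higher (0.93 ± 0.12). Of 4 measured genes of sterol uptake and transport, 2 were higher and 1 lower (11.9% and 15.6% of all probe sets), with the sterol carrier Stard4 at 1.28 ± 0.09, the lipoprotein receptor Scarb1 at 0.38 ± 0.10 and the lysosomal carrier Npc2 at -0.70 ± 0.08.

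Isoprenoid side branches leave the pathway at the diphosphates. Of 8 measured genes, 4 were higher and 0 lower at day 8 (11.9% and 15.6% of all probe sets), with Dhdds, of dolichol synthesis, at 0.81 ± 0.24, Coq2, of ubiquinone synthesis, at 0.53 ± 0.15 and the prenyltransferase subunit Fnta at 0.40 ± 0.10. Of 3 measured ketone body enzymes, 2 were higher (11.9% of all probe sets), with the mitochondrial thiolase Acat1 at 1.18 ± 0.13 (adjusted p = 5.3e-08) and Bdh1 at 0.34 ± 0.13 (adjusted p = 0.0461), while Oxct1 was not called (-0.32 ± 0.17, adjusted p = 0.193). Without monolayer day 8 replicate 3 the isoprenoid count was 2 and the ketone body count 1.

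**Figure D4:**
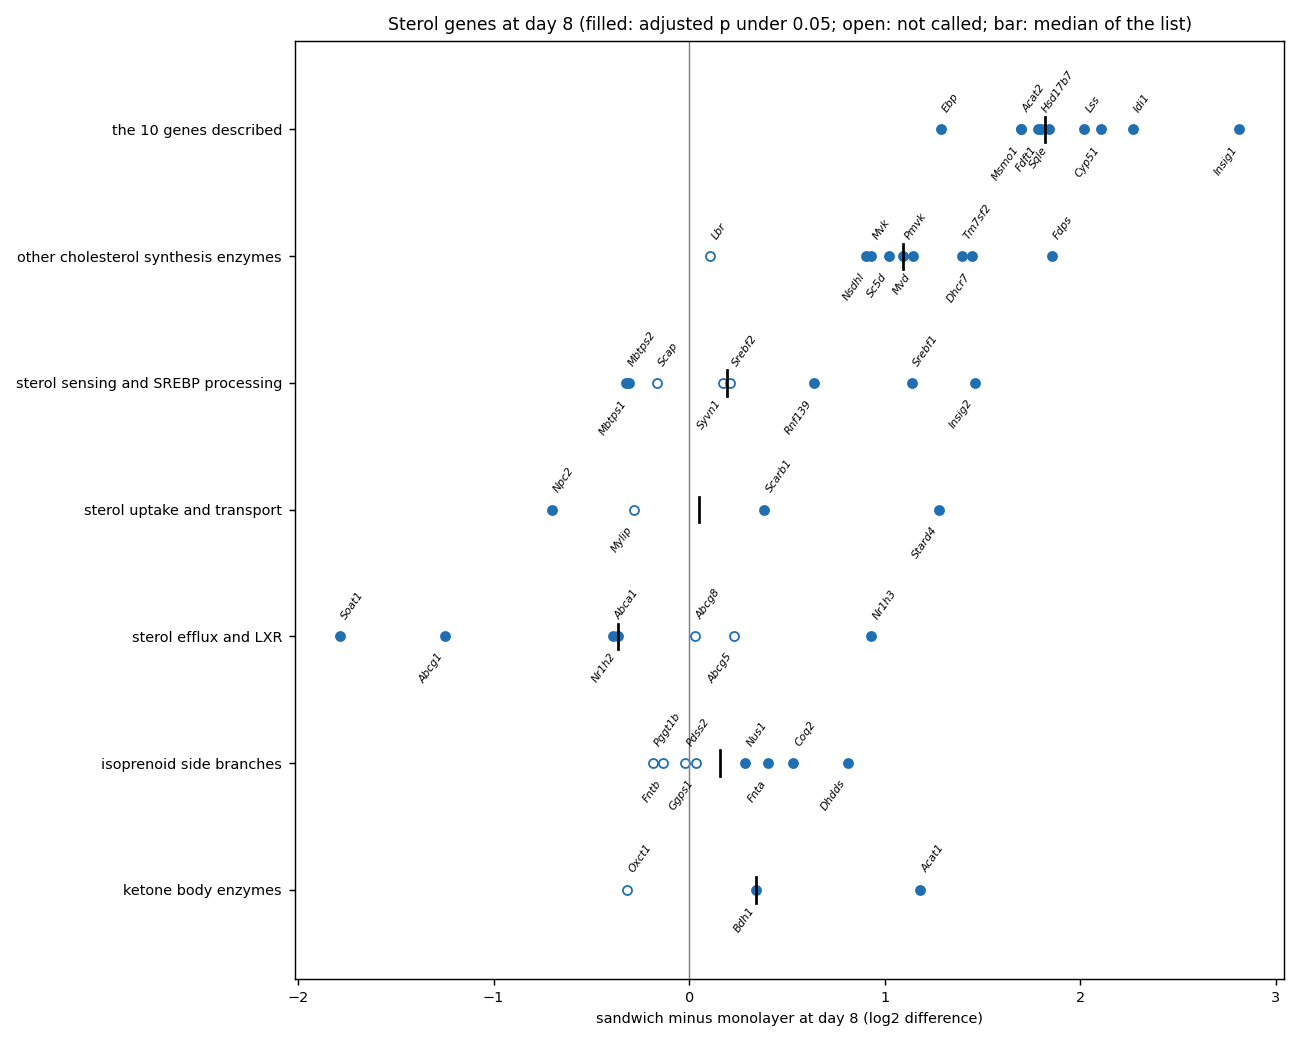
Log2 difference of sandwich minus monolayer at day 8 for the 10 genes and for 6 lists of related genes, with filled points called at an adjusted p under 0.05 and a bar at each list's median. The 10 genes lie between 1.29 and 2.81, and 8 of the 9 other synthesis enzymes lie between 0.91 and 1.85, while Soat1 and Abcg1 lie furthest to the left.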

How the data were processed

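Biotin-labelled cRNA, made with a T7-oligo(dT) primer per the labels, was hybridised to 24 arrays. The deposited log2 values of 31099 probe sets were used as given; the submitters' processing notes name RMA and limma, without saying for which step, and whether RMA made these values is not given in the sources used here. The number of arrays, not a read depth, limits the precision. After 57 control probe sets were left out, 31042 were tested. Symbols came from GEO's platform annotation, updated through Entrez IDs: 20826 probe sets had 1 symbol, 436 several and 9780 none. limma 3.58.1 (R 4.3.3) was fitted with 1 mean per group over all 24 arrays, without covariates, and p-values were adjusted by Benjamini-Hochberg over all probe sets, with calls at 0.05. The fit was tested on simulated data. The members and lists were chosen with earlier results of these data known. Genes named from each list are the 3 with the smallest adjusted p at day 8, and the 8 genes most like the members are those with the highest correlation. Alternatives were quantile normalization, median centring, array weights, fits on the compared groups alone, a filter on dim probe sets, the mean of a gene's probe sets, beta-actin as a covariate, the replicate number as a block and each array left out.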

Additional observations from a re-analysis of the deposited data

Results flagged for a closer look

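The culture difference changed between days by the test of the interaction (limma, adjusted p under 0.05), and 20 results met that condition. Each value is the sandwich minus monolayer difference at the later day minus that at the earlier day, in log2 units. From day 1 to day 8 it was 0.95 for Acat2, 1.35 for Idi1, 1.42 for Fdft1, 1.45 for Sqle and 1.60 for Lss. It was 1.77 for Cyp51, 1.09 for Msmo1, 1.40 for Hsd17b7, 1.20 for Ebp and 2.39 for Insig1. From day 1 to day 2 it was 0.81 for Fdft1, 0.85 for Lss, 0.90 for Cyp51, 0.97 for Hsd17b7 and 0.93 for Ebp. From day 3 to day 8 it was 0.74 for Idi1, 0.53 for Lss, 1.06 for Cyp51, 0.73 for Msmo1 and 1.87 for Insig1. The other Lss probe set gave 0.00 over those last days. From day 1 to day 8 it also grew less than the set used, with differences of 0.32 at day 1 and 1.20 at day 8.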

How the results depend on the processing

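Across the alternatives, 0 of the results changed direction while called. With 1 array left out, 1143 of 1200 single-gene results kept their side of the threshold, 47 lost the call and 10 gained it, and under the other settings the counts were 1220, 17 and 43 of 1280. The median over all probe sets shifted by at most 0.0666. Over all probe sets, day 1 calls were 257 higher and 335 lower with quantile normalization, in place of 178 and 374, and the monolayer day 1 to day 8 calls were 3752 and 6154 with median centring, in place of 4661 and 4894. The day 1 count of 3 members was 6 with quantile normalization, 7 with array weights and 5 with the dim filter or with the mean of a gene's probe sets, and 2 to 5 with an array left out. The counts of 10 at days 3 and 8, and of 10 for the day 1 to day 8 interaction, did not move in any fit, and that at day 2 was 9 to 10. With the mean of a gene's probe sets, the sandwich day 2 to day 3 count was 0 in place of 2 and the monolayer count 0 in place of 1, which was 3 with array weights. With an array left out, these ran from 1 to 2 and from 1 to 2. The sandwich day 3 to day 8 count ran from 4 to 8, the monolayer day 1 to day 2 count from 1 to 3, and the interaction of day 3 to day 8 from 3 to 6. That interaction count of 5 was 4 to 7 under the other settings, and 7 with quantile normalization, where Sqle and Hsd17b7 gained the call. The cause of these moves was not tested, except that leaving out an array leaves fewer samples.

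Whether replicate numbers pair the arrays is not stated, and they did not meet the condition that every same-number pair correlate above 0.1, so the fit without a block was kept. Of 84 same-number pairs of different groups, 56 had deviations correlated above 0.1, as had 6 of 12 within a day. The median was 0.20 for same-number pairs, against -0.13 for other pairs, and 15 of 24 arrays correlated best with their own number, which is a hint of shared variation from the data and not from the design. Deviations were taken from each group's mean, so these medians are not independent of each other. With the replicate number as a block, the day 1 count was 5 in place of 3, with Lss (adjusted p = 0.0231) and Hsd17b7 (0.023) added, and the counts at days 2, 3 and 8 were 10. The day 3 to day 8 interaction count was 7 in place of 5, with Sqle (0.00335) and Hsd17b7 (0.0201) added, and Idi1 gained the day 1 to day 2 interaction (0.0478). Within cultures, the block added Sqle in monolayer day 1 to day 2 (0.00235) and sandwich day 2 to day 3 (higher, 0.0348), Acat2 in monolayer day 1 to day 8 (0.0172) and Cyp51 in sandwich day 1 to day 8 (0.0302).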
